A study of Mus musculus with 24 samples.

Results

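The 6 genes described here, Ngfr, Erbb3, Sox10, Foxd3, Isl1 and Pou4f1, are genes of the neural crest, of peripheral glia and of sensory ganglia, taken from 26225 GENCODE M1 genes that were counted in mouse total RNA. They were chosen by their measured level in 14.5 dpc fetal head (FH) against differentiated CCE cells, so their difference between the tissues is given as a description without a test. CCE are feeder-independent embryonic stem cells of strain 129/SvEv, which were kept without LIF and with 0.266 µM retinoic acid for 5 days. FH was dissected from FVB/N embryos, and neither group carries a stated transgene or deletion. RNA of both tissues was depleted of ribosomal RNA with the RiboMinus or the Ribo-Zero Kit, fragmented by hydrolysis of the RNA or shearing of the cDNA, and sequenced as single tags that keep no strand. The RiboMinus part holds 8 CCE libraries from 4 cDNA preparations and 6 FH libraries from 3 preparations, each preparation sequenced at Vienna-IMP and at Nijmegen, and the Ribo-Zero part holds 1 hydrolysed library per tissue, sequenced at Vienna-CeMM. The CCE RiboMinus preparations are technical replicates, separate animals are not stated for the FH preparations, and the p-values below therefore measure a spread that may be technical. For Ribo-Zero, RNA of a further biological replicate was used.

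The neural crest is a migratory cell population that leaves the dorsal neural tube and gives rise to Schwann cells, melanocytes, much of the skeleton of the face and, together with the cranial placodes, the sensory ganglia of the head. Foxd3 and Sox10 are transcription factors of early crest cells, and Sox10 stays on in the glial lineage, where the neuregulin receptor ErbB3 is needed for Schwann cell precursors to survive and migrate. The low affinity neurotrophin receptor p75, the product of Ngfr, marks migrating crest cells and glia, while the LIM-homeodomain factor Isl1 and the POU-homeodomain factor Brn3a, the product of Pou4f1, act together in sensory neurons. Each gene is also used elsewhere in the head, for example Sox10 in the oligodendrocyte lineage, Isl1 in motor neurons, the pituitary and the retina, and Pou4f1 in the retina and midbrain. In a whole FH, fewer cells of a type and less RNA per cell cannot be told apart.

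All 6 loci are on mm9, the build of the deposited tags, and lie on different chromosomes. Ngfr occupies chr11:95430132-95449049 and Erbb3 chr10:128004579-128026708. Sox10 lies at chr15:78985343-78994920, Foxd3 at chr4:99322990-99325362, Isl1 at chr13:117088478-117099896 and Pou4f1 at chr14:104862737-104867216. Foxd3 is on the plus strand and is a single exon of 2373 nt, and the other genes are on the minus strand, with 6 merged exon blocks in Ngfr, 28 in Erbb3, 4 in Sox10, 6 in Isl1 and 4 in Pou4f1. A merged exon block is a stretch covered by an exon of at least 1 annotated transcript. Of the 36-mers in the exons, between 97.8% (Foxd3) and 100% (Erbb3, Isl1) occur at 1 place in the genome by exact match. Few exact 36-mers could thus be shared with paralogues such as Pou4f2, Sox9 or Erbb2. The alignment of the tags also allowed mismatches, and near matches were not counted. The genes differ in base composition, with an exon GC content of 64.2% in Foxd3, 61.7% in Sox10, 58.8% in Pou4f1, 58.6% in Ngfr, 51.2% in Erbb3 and 45.6% in Isl1.

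The coding windows of 60 nt that held the most FH RiboMinus tags of each gene are shown because they are the stretches on which the levels below rest most. They are written 5′ to 3′ on the strand of the gene and on mm9, with each CG dinucleotide in capitals.
Ngfr coding window, chr11:95432180-95432239, - strand: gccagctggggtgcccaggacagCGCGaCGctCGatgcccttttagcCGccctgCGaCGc
Erbb3 coding window, chr10:128006607-128006666, - strand: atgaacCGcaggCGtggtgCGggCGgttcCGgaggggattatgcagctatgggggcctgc
Sox10 coding window, chr15:78989685-78989744, - strand: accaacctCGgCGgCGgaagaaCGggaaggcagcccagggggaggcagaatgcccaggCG
Foxd3 coding window, chr4:99323796-99323855, + strand: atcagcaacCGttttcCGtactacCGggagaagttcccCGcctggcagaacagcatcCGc
Isl1 coding window, chr13:117095486-117095545, - strand: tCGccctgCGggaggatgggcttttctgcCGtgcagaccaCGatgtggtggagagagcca
Pou4f1 coding window, chr14:104866888-104866947, - strand: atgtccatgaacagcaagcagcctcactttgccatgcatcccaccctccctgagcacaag
The Ngfr window held 38 FH RiboMinus tags against 10 in CCE, and the Sox10 window 33 against 0. The Erbb3 window held 16 against 4, the Isl1 window 23 against 7, the Pou4f1 window 8 against 2 and the Foxd3 window 6 against 0. The Sox10 window is 70.0% GC, the Ngfr window 71.7% and the Pou4f1 window 55%, in a coding region that is 72.2% GC as a whole. The same Pou4f1 window also held the most FH Ribo-Zero tags, 53 against 12 in CCE.

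Sequence before the transcription start was found in RefSeq (GRCm38.p6) for 4 of the 6 genes. The 250 bases upstream of the start are shown because the 4 genes were higher in the same tissue and because these windows share a high GC content. CG dinucleotides are in capitals, and the coordinates are those of GRCm38.p6, not mm9.
Ngfr upstream bases, chr11:95587699-95587948, - strand: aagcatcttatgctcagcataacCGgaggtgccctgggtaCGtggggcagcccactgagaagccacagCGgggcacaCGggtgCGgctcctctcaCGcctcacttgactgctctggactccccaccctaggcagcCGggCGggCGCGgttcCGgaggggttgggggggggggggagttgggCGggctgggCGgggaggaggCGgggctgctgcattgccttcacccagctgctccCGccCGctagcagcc
Foxd3 upstream bases, chr4:99656049-99656298, + strand: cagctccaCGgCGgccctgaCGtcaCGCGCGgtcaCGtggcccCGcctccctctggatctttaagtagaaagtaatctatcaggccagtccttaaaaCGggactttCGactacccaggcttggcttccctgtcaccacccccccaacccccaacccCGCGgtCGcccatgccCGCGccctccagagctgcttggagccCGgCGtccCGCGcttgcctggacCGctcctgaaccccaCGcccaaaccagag
Isl1 upstream bases, chr13:116309689-116309938, - strand: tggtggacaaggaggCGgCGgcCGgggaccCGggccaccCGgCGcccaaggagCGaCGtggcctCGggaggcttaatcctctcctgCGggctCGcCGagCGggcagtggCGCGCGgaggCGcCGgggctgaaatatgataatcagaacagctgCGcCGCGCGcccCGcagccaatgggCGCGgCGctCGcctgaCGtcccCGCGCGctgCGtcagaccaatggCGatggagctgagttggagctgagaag
Pou4f1 upstream bases, chr14:104468000-104468249, - strand: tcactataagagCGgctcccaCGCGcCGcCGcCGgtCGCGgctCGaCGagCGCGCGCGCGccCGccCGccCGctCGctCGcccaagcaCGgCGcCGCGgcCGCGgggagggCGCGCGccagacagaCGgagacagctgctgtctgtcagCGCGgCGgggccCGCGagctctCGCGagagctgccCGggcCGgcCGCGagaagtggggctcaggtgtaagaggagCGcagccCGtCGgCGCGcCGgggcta
The Pou4f1 window is 78% GC with 47 CG dinucleotides, above 99.8% of the RefSeq windows of this length in CG count. Isl1 has 71.2% GC and 33 CG dinucleotides, Ngfr 70.4% and 16, and Foxd3 65.6% and 21. Both strands of these 250 bases were searched for short motifs. The GC box GGGCGG occurred 4 times for Ngfr and 2 times for Pou4f1, and at least once in 32.9% of 27025 RefSeq promoters. The E-box CANNTG occurred 2 times for Ngfr and Pou4f1 and 1 time for Foxd3 and Isl1, and is in 66% of promoters. ACAAAG or ACAATG, cores bound by SOX factors, TAATTA, a homeodomain core, and TATAAA were not found in the 4 windows, and occur in 25.5%, 4.9% and 13% of promoters.

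Depth was between 920424 and 2473448 unique tags per RiboMinus library, and 28708715 (CCE) and 48426051 (FH) in the Ribo-Zero libraries. The Ribo-Zero totals include 2363248 (CCE) and 2200005 (FH) tags of the mitochondrial chromosome, which were removed from the RiboMinus libraries. The expression unit is RPKM, the tags in exons scaled to the exon length and to all unique tags of the library. The share of tags in exons was 64.7% to 71.6% in CCE and 44.6% to 60.8% in FH RiboMinus libraries, the lowest being a hydrolysed library of Nijmegen (FH library 5 in the labels). The markers of fetal brain summed to 356 to 758 RPKM in FH and 25.9 to 43.2 in CCE, and those of primitive endoderm to 30.4 to 44.9 in FH and 101 to 207 in CCE. Of the 5 pluripotency markers 4 were lower in FH by limma, with 0 FH RiboMinus tags for Pou5f1 and Zfp42, while in CCE Pou5f1 had a mean of 17.9 ± 2.45 RPKM (SD, n = 4 preparations). The fifth, Sox2, which neural progenitors also use, was higher in FH by RiboMinus (29.7 against 14.6 RPKM), a call that was lost in some alternatives. By Ribo-Zero it was lower in FH, at 21.4 RPKM against 42.7 in CCE.

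Ngfr was the highest of the 6 genes in FH. Its RPKM was at lowest 13.8, at median 27.4 and at highest 57.4 in the 6 FH RiboMinus libraries, and at lowest 2.58, at median 3.70 and at highest 4.66 in the 8 CCE libraries. The groups did not overlap, with the lowest FH value from FH library 5. Of the 10857 genes with a mean over 3 RPKM in at least 1 tissue, 14.3% had every FH library above every CCE library, and since the 6 genes were chosen by this difference, nothing is read from the number of them that did. Pooled, 964 FH tags against 159 CCE tags gave a level 7.97 times higher in FH (95% exact interval of counting error 6.73 to 9.49). Within hydrolysed libraries the ratio was 7.82 and within sheared libraries 11.8. Sheared libraries make up a larger part of the CCE pool than of the FH pool, so pooled ratios mix the tissue with the fragmentation. In the Ribo-Zero libraries Ngfr had 7.64 RPKM in FH and 1.21 in CCE, a ratio of 6.30 (5.22 to 7.66).

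Erbb3, the other receptor, was the gene with the smallest difference. Its RPKM ranged from 3.6 over a median of 6.42 to 7.31 in FH and from 2.07 over 3.02 to 3.74 in CCE RiboMinus libraries. The groups overlapped, since the sheared FH library of Vienna-IMP (3.6) lay below the highest CCE library (3.74), and 5 of the 6 FH libraries were above every CCE library. The pooled ratio was 2.02 (1.71 to 2.40), from 360 FH and 234 CCE tags, with 1.94 within hydrolysed and 1.93 within sheared libraries, and within either kind of library FH and CCE did not overlap. By Ribo-Zero, Erbb3 had 6.71 RPKM in FH and 5.01 in CCE, a ratio of 1.34 (1.23 to 1.45). Its level in CCE was therefore far from 0 by both kits, with 866 tags in the CCE Ribo-Zero library.

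Sox10 had the largest relative difference. The 6 FH RiboMinus libraries had at lowest 7.38, at median 15.0 and at highest 18.4 RPKM, while the 8 CCE libraries held 8 tags in all and had 0 to 1.06 RPKM. The CCE tags came from the 4 sheared libraries (2, 1, 1 and 4 tags), and the 4 hydrolysed CCE libraries had 0. The groups did not overlap, and the pooled ratio was 63.1 with a wide interval (31.7 to 147). Without CCE library 7, which held 4 of the 8 CCE tags, it was 113. Between Vienna-IMP libraries alone it was 99.2, and between those of Nijmegen 41.8. Within hydrolysed libraries, where the CCE pool was at 0, the exact 95% lower limit of the ratio was 72.5 and a floor of 3 tags for the CCE pool gave 89.7, and within sheared libraries the ratio was 33.9 (16.5 to 80.9). By Ribo-Zero the ratio was 10.8 (6.97 to 17.7), from 2.92 RPKM in FH and 0.27 in CCE. The Ribo-Zero interval lay wholly below the RiboMinus interval.

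Foxd3, a forkhead repressor, was low in both tissues. It had 1.05 RPKM at lowest, 3.13 at median and 8.24 at highest in FH, and 0, 0.439 and 1.81 in CCE RiboMinus libraries. The groups overlapped at FH library 5, and the other 5 FH libraries were above every CCE library. A total of 72 FH tags against 18 CCE tags gave a ratio of 5.26 (3.10 to 9.37). Within hydrolysed libraries the ratio was 10.5 and within sheared libraries 5.60, and within either kind FH and CCE did not overlap. The pooled ratio lay below both, from pools that hold sheared libraries in unlike parts. In Ribo-Zero libraries 143 against 37 gave 2.29 (1.59 to 3.38). Of the Foxd3 tags, 33.3% in CCE and 48.6% in FH RiboMinus libraries aligned to the plus strand, in libraries that keep no strand. The annotation places a miRNA, BX005053.1, inside its exon.

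Isl1 was clearly present in both tissues. Its RPKM was at lowest 8.92, at median 11.1 and at highest 15.9 in FH and at lowest 1.91, at median 3.73 and at highest 6.16 in CCE RiboMinus libraries. The groups did not overlap. The pooled ratio was 2.80 (2.27 to 3.48), 3.03 within hydrolysed and 2.97 within sheared libraries. By Ribo-Zero the ratio was 4.51 (3.65 to 5.63), with 6.03 RPKM in FH and 1.34 in CCE.

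Pou4f1 was the lowest of the 6 genes in FH by RiboMinus, with 0.664 RPKM at lowest, 1.88 at median and 5.76 at highest, and 0, 0.523 and 1.00 in CCE. FH library 5, with 3 tags, fell within the CCE range, and the other 5 FH libraries were above it. The pooled ratio was 4.49 (2.58 to 8.22) from 58 FH and 17 CCE tags. It was 3.66 (1.73 to 8.65) within hydrolysed libraries, where FH and CCE overlapped, and 8.29 (3.55 to 21.5) within sheared libraries, where they did not. By Ribo-Zero it was 6.02 (4.59 to 8.03) from 589 and 58 tags. By Ribo-Zero Pou4f1 had 4.30 RPKM in FH, and so stood above Sox10 and Foxd3 there.

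**Figure D1:**
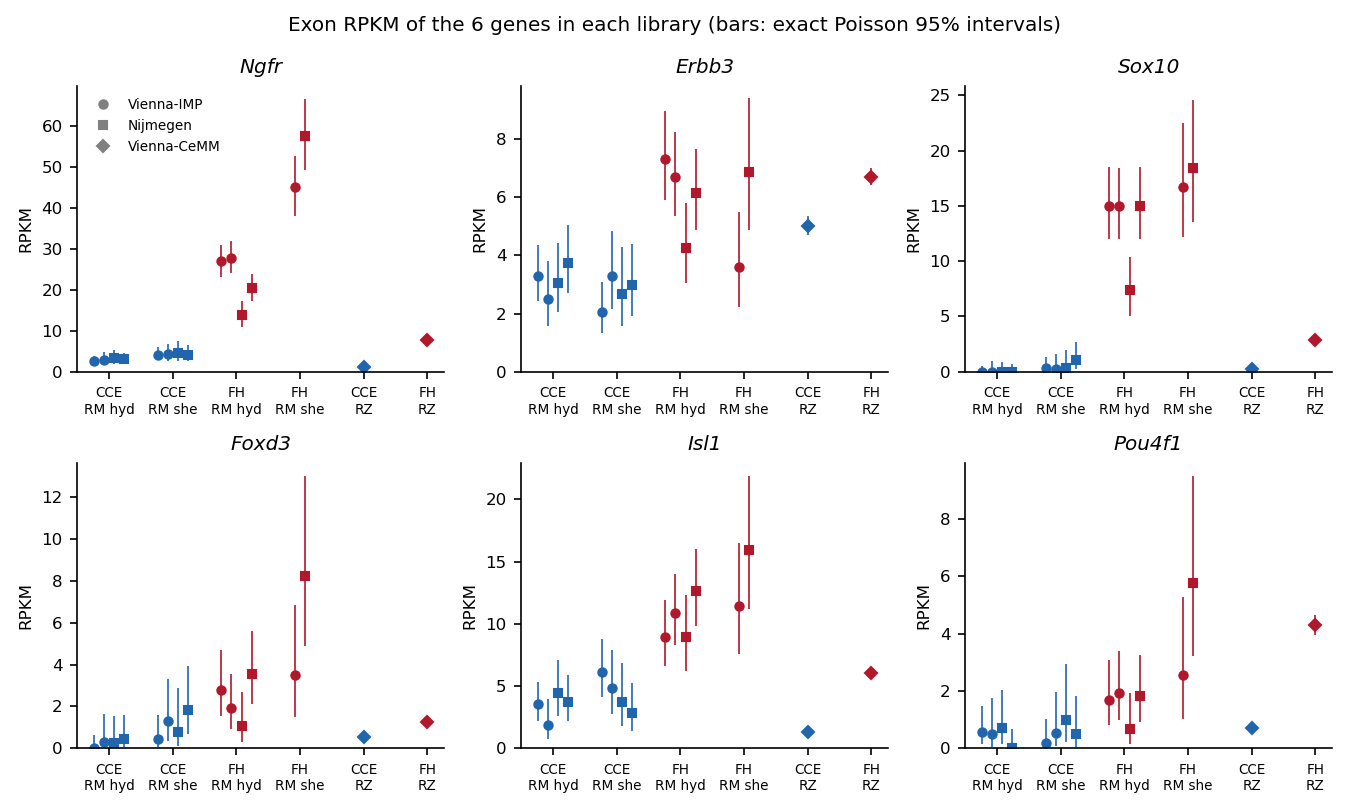
RPKM (linear axes from 0) of each of the 6 genes in every library, with CCE in blue and FH in red, RM for RiboMinus, RZ for Ribo-Zero, hyd for hydrolysed and she for sheared, point shapes for the sequencing location, and bars for the exact Poisson 95% interval of counting error. Ngfr, Sox10 and Isl1 have no overlap between CCE and FH RiboMinus libraries (14.3% of the genes tested between tissues have every FH library above CCE), and the 2 sheared FH libraries are the highest for Ngfr (45 and 57.4 RPKM).

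By mean RPKM the order in FH RiboMinus libraries was Ngfr, Sox10, Isl1, Erbb3, Foxd3 and Pou4f1. Isl1 and Erbb3 were the only neighbours in this order whose ranges did not overlap. Ngfr was above Sox10 in 6 of 6 libraries, although the ranges of both genes overlapped across libraries, and Sox10 was above Isl1, Erbb3 above Foxd3 and Foxd3 above Pou4f1 in 5 of 6 libraries each. In CCE the order was Isl1, Ngfr, Erbb3, Foxd3, Pou4f1 and Sox10, and there a gap separated the first 3 genes from the others, with Erbb3 above Foxd3 in 8 of 8 libraries without overlap of their ranges. The other steps in CCE held in fewer libraries, with Isl1 above Ngfr in 5 of 8, Ngfr above Erbb3 in 6, Foxd3 above Pou4f1 in 4 and Pou4f1 above Sox10 in 5, all with overlapping ranges. In FH Ribo-Zero the order over all exons was Ngfr, Erbb3, Isl1, Pou4f1, Sox10 and Foxd3, and over coding exons alone Sox10 stood above Pou4f1.

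Fragmentation was not used to choose the genes, and was tested in FH with limma on log2(RPKM + 1), with location as a term and the p-values adjusted over all 9401 genes with a mean over 3 RPKM. The 2 sheared libraries are runs of 1 cDNA preparation and the 4 hydrolysed libraries runs of 2. This fit therefore takes repeat runs as replicates, and its p-values do not measure the spread between preparations. Of the 2 hydrolysed preparations 1 (FH2h) comes from another depleted RNA with 2 rounds of depletion, while the sheared one (FH1s) had 1 round. Fragmentation is thus partly mixed with the RNA and the rounds, and FH1s and FH1h, which share an RNA, were not fitted alone. Of the 6 genes 5 passed the filter, and 1 of them, Ngfr, was called. Of all tested genes 8.74% were called lower and 10.1% higher in hydrolysed libraries. With the runs of a preparation summed there is 1 sheared against 2 hydrolysed preparations, so the sheared arm has no spread of its own and no test is given.

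Ngfr had 22.2 ± 6.52 RPKM (SD over 4 runs of 2 preparations) in hydrolysed and 51.2 ± 8.79 (SD over 2 runs of 1 preparation) in sheared FH libraries. The groups did not overlap, and the log2 difference, hydrolysed minus sheared, was -1.21 with a standard error of 0.338 and an adjusted p = 0.0308 (limma). It was lower in hydrolysed libraries at Vienna-IMP (-0.70) as well as at Nijmegen (-1.71). Leaving out FH library 4, the sheared library of Nijmegen, or FH library 3 ended this call, with log2 differences of -0.70 and -1.29, and 26 genes in all were called without FH library 4. Testing every gene without the filter also ended it (adjusted p = 0.0686, limma). Over the summed preparations the difference was -1.14, without a test.

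Foxd3 had 2.33 ± 1.08 RPKM in hydrolysed and 5.86 ± 3.37 in sheared libraries (SD over the same runs), a log2 difference of -1.01 with an adjusted p = 0.0797 by limma, and was not called. It was called without FH library 2 (-1.18) or library 6 (-1.17), and without FH library 4 it did not pass the filter. Its hydrolysed mean is under the filter, so Foxd3 was tested only through its sheared level, and nothing is read from these calls. The contrast rests on 46 hydrolysed and 26 sheared tags. Sox10 differed by -0.45 (adjusted p = 0.322, limma), Isl1 by -0.37 (adjusted p = 0.334) and Erbb3 by 0.22 (adjusted p = 0.615). Pou4f1, with a mean of 2.40 RPKM, did not pass the filter and differed by -0.99 in the fit of limma without a filter (adjusted p = 0.143). Over all tested genes the median difference moved with exon GC content. It was 0.66 for 1576 genes under 45% GC, 0.32 from 45% to 50%, -0.06 from 50% to 55%, -0.49 from 55% to 60% and -0.89 for 680 genes of 60% GC or more. Of these 680 genes, 40% were called lower in hydrolysed libraries, against 0.508% of the genes under 45% GC. In the class of Ngfr, from 55% to 60% GC, 15.6% were called lower. Ngfr, Pou4f1 and Foxd3 lay below the median of their GC class, Sox10 and Erbb3 above it, and Isl1, with 45.6% GC, had a difference of the other sign than its class. The part of base composition in the differences of the 6 genes was not tested.

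**Figure D2:**
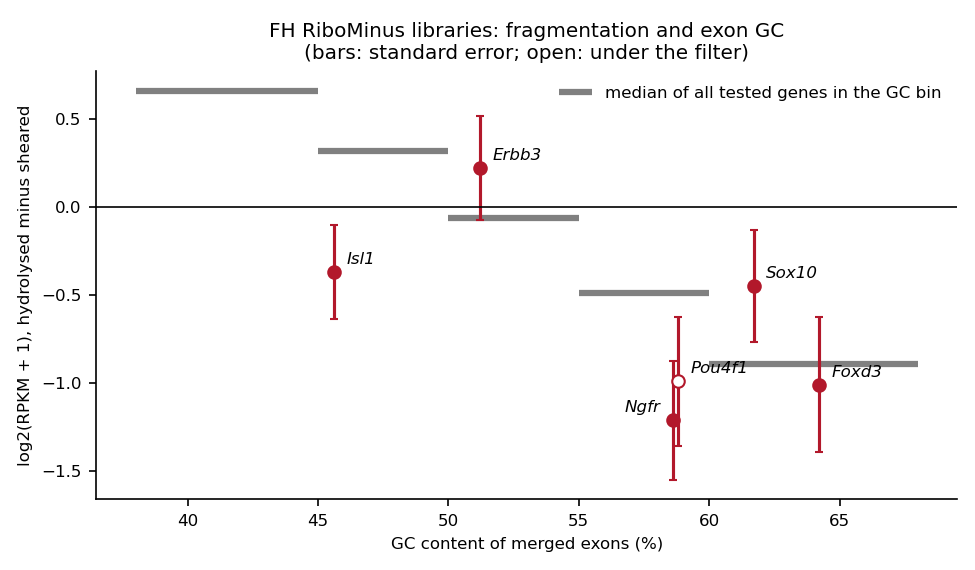
Difference in log2(RPKM + 1) between hydrolysed and sheared FH RiboMinus libraries (y axis) against the GC content of the merged exons in percent (x axis). Red points are the 6 genes with their standard errors, open for Pou4f1, which was under the filter, and grey lines are medians of all tested genes per GC class, which fall from 0.66 to -0.89; the outer classes extend beyond the axis.

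For the sequencing location, none of the 5 tested genes was called by limma, none had an unadjusted p under 0.05, and 0.0532% of all tested genes (5 of 9401) were called, while 424 had an unadjusted p under 0.05. The log2 differences, Vienna-IMP minus Nijmegen, lay between -0.27 (Foxd3, standard error 0.361) and 0.33 (Ngfr, standard error 0.319), each with an adjusted p = 0.999 in limma. Both locations ran the same 3 preparations, and the fit holds fragmentation but not the preparation. With the preparation as a term in its place, chosen after seeing the data, none of the 5 genes was called either and 0.670% of all tested genes were, with a difference of 0.33 for Ngfr (standard error 0.417). By preparation Ngfr differed by -0.35 in FH1s, 0.91 in FH1h and 0.43 in FH2h, so that its sign was not the same in the 3 pairs of runs, as far as the hydrolysed preparations carry the same number at both locations.

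Scaled to all unique tags, levels by Ribo-Zero and RiboMinus differed by more than counting error for 5 of the 6 genes in FH. They did so for 73.0% of 17021 genes with at least 20 tags in the pools compared. The totals include mitochondrial tags by Ribo-Zero only, which lowers the Ribo-Zero RPKM of every gene. The ratios were not recomputed without these tags, so the count of 5 holds for this scale only. With 1 Ribo-Zero library per tissue there is no replicate, so the ratios carry intervals of counting error only. In FH, Sox10 had 0.204 times its RiboMinus level in the Ribo-Zero library (0.177 to 0.236), Ngfr 0.271 times (0.249 to 0.295), Foxd3 0.407 times (0.305 to 0.548) and Isl1 0.546 times (0.475 to 0.629). Erbb3 was at 1.11 times (0.994 to 1.25), and Pou4f1 was the 1 gene of the 6 whose interval lay above 1, at 2.08 times (1.59 to 2.78). Of all genes 49.2% had an interval wholly below 1 and 23.8% one wholly above it. The median over the 17021 genes was 0.766, and Sox10 lay at percentile 3.33 and Pou4f1 at percentile 88.4 of these genes.

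In CCE, where the median over genes was 0.903, Ngfr (0.343) and Isl1 (0.339) were likewise lower by Ribo-Zero, and Erbb3 was higher, at 1.68 times (1.45 to 1.95), where the intervals of 77.4% of all genes left out 1, 43.4% below and 34.0% above it. The CCE intervals of Sox10, Foxd3 and Pou4f1 included 1, with 8 to 18 RiboMinus tags each. By exon GC class the FH median of the log2 ratio, Ribo-Zero over RiboMinus, fell from 0.23 under 45% GC to -1.56 at 60% GC and above. Sox10 (-2.29) lay below its class and Foxd3 (-1.30) above it. From 55% to 60% GC, where the median was -1.18, Ngfr (-1.88) lay below and Pou4f1 (1.06) far above it. Isl1 (-0.87) lay below the -0.12 of its class and Erbb3 (0.15) above the -0.60 of its own. The Ribo-Zero tags are longer than the RiboMinus tags, the RNA was another sample, the location was another one and the RiboMinus pools include sheared libraries, and the parts of these in the ratios cannot be told apart.

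**Figure D3:**
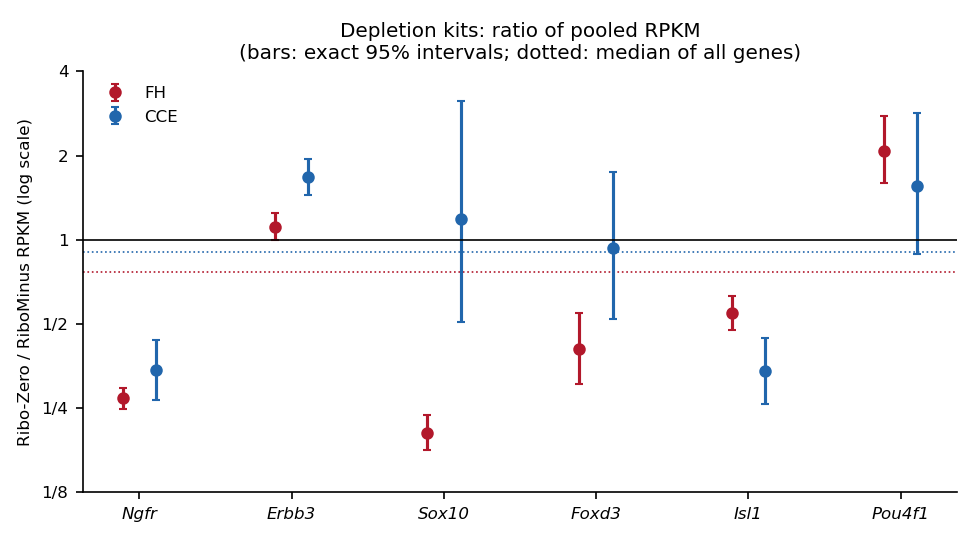
Ratio of the pooled RPKM by Ribo-Zero to that by RiboMinus (y axis, log scale) for each of the 6 genes in FH (red) and CCE (blue), with exact 95% intervals of counting error; dotted lines mark the medians over all genes (0.766 in FH and 0.903 in CCE). Sox10 in FH is lowest (0.204) and Pou4f1 in FH highest (2.08).

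Within Pou4f1 the difference between the Ribo-Zero and RiboMinus libraries varied by region. Its first 2 exon blocks are 71.2% and 72.9% GC and hold the whole coding region, and blocks 3 and 4, which are 44.9% and 40.9% GC, lie in the 3′ UTR. Blocks 3 and 4 make up 44.3% of the exon length and took 6 of 58 FH RiboMinus tags (10.3%, exact 95% interval 3.89 to 21.2) but 315 of 589 FH Ribo-Zero tags (53.5%, 49.4 to 57.6). In CCE they took 1 of 17 and 24 of 58 tags. Block 4 had 0.295 RPKM by RiboMinus and 5.26 by Ribo-Zero in FH, while block 1 had 6.22 and 5.36. Block 2 had 2.38 RPKM by RiboMinus and 3.01 by Ribo-Zero. When only coding exons were counted, the log2 ratio of Pou4f1 between the kits in FH was 0.17, in place of 1.06 over all exons.

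Isl1 had the same kind of difference to a lesser degree. Its last block, of 36.8% GC, took 24.9% of the FH RiboMinus tags (19.9 to 30.4) and 42.8% of the FH Ribo-Zero tags (39.2 to 46.5), while it makes up 52.5% of the exon length. Blocks 3 and 4 of Isl1, which are 59.6% and 58.9% GC, had 22.5 and 27.0 RPKM by RiboMinus and 7.62 and 6.91 by Ribo-Zero in FH, so that the 6 blocks spanned 4.92 to 9.59 RPKM by Ribo-Zero and 5.24 to 27.0 by RiboMinus. Over coding exons alone the log2 ratio of Isl1, Ribo-Zero over RiboMinus, was -1.43 in place of -0.87. The same peak stood in CCE RiboMinus libraries, with 12.0 RPKM in block 4 and 1.39 in block 6. In Sox10, block 3 was highest by both kits (28.5 and 6.45 RPKM), and the last block took 64.6% and 55.6% of the tags. In Ngfr the last block took 61.1% and 58.0%, and in Erbb3 33.3% and 33.7%.

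**Figure D4:**
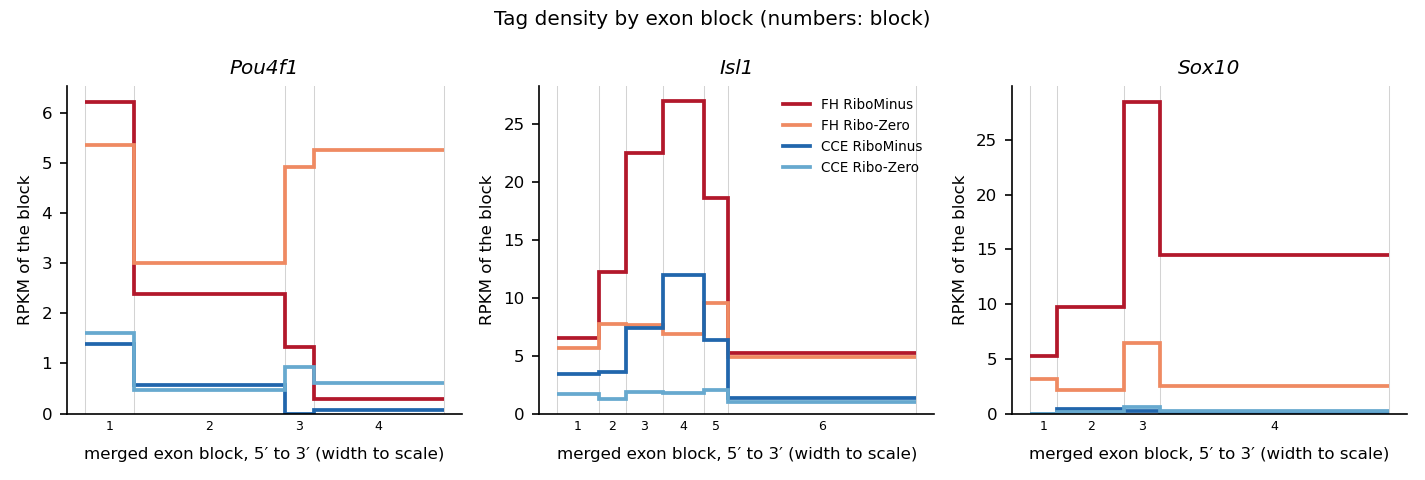
RPKM of each merged exon block (y axis, linear from 0) along Pou4f1, Isl1 and Sox10, with block widths to scale from 5′ to 3′ (x axis, block number), in FH and CCE by both kits, without replicate error since tags are pooled. The last Pou4f1 block has 5.26 RPKM by FH Ribo-Zero and 0.295 by FH RiboMinus, and Isl1 peaks at 27.0 in block 4 by FH RiboMinus.

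Tags in introns can come from unspliced RNA. Relative to exons, their density in FH was below the median of all genes for the receptors and high for Pou4f1. Given as a share of the density in exons, Ngfr introns reached 1.69% by RiboMinus and 3.63% by Ribo-Zero in FH, against medians of 8.11% and 13.0% over all genes with at least 20 exon tags. Erbb3 had 5.91% and 4.91%, and Isl1 9.33% and 9.78%. Pou4f1 had 29.5% (10 intron tags) and 45.6% (157 intron tags), at percentiles 90.6 and 89.3 of all genes. Its introns between blocks 2, 3 and 4 lie within the 3′ UTR, and their tags were not counted apart. Sox10 had 6.79% by RiboMinus and 21.0% by Ribo-Zero, with 66 and 204 intron tags beside 384 and 383 exon tags. The intron level of Sox10 was 0.969 RPKM by RiboMinus and 0.614 by Ribo-Zero, against exon levels of 14.3 and 2.92. No other gene overlaps the introns of these genes in the annotation. By Ribo-Zero the intron level of all 5 genes with introns was higher in FH than in CCE beyond counting error, as it was for 57.3% of 15354 genes, and the 5 were chosen for their FH level.

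Pa2g4 starts within 2 kb of the 3′ end of Erbb3, where 386 FH and 609 CCE Ribo-Zero tags were counted, and Gm12688 starts within 2 kb upstream of Foxd3, where 46 FH and 13 CCE Ribo-Zero tags lay. These tags lie outside the exons counted for Erbb3 and Foxd3. Polr2f and Gm10863 lie within 10 kb of Sox10 and Rnf219 within 10 kb of Pou4f1, and no gene is annotated so near to Ngfr or Isl1.

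The other genes of the same pathways were compared between FH and CCE with limma, over 3 FH and 4 CCE RiboMinus preparations with p-values adjusted over all 10857 genes with a mean over 3 RPKM in at least 1 tissue. These preparations come from 2 depleted RNAs per tissue, since hydrolysed and sheared preparations share an RNA, so n counts preparations and not RNAs. Of 74 other genes in 5 lists, 49 were tested, 29 were higher and 10 lower in FH, and 10 were not called. Of all tested genes 20.3% were called higher and 34.0% lower. With 1 sample per depleted RNA, 2 against 2 and chosen after seeing the data, 29 were higher and 14 lower of 48 tested, where 25.2% of all genes were called higher and 47.5% lower. The median log2 difference over the 49 genes was 1.56 and over all tested genes -0.33. With median of ratios scaling the calls over all genes were 2664 higher and 2667 lower, in place of 2205 and 3694, and the median over all genes was -0.10. Of the 39 genes called, 34 had the same direction in the Ribo-Zero libraries, and Tfap2a, Snai1, Ets1, Bdnf and Egfr the other.

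The neurotrophin list holds the ligands and receptors that Ngfr works with. Of 12 tested genes 7 were higher and 3 lower. The neurotrophin receptors Ntrk2 and Ntrk3 and Lingo1, a co-receptor of p75, were higher in FH by limma. Ntrk3 was at 14.6 ± 1.8 RPKM in FH (SD, n = 3) and 0.769 ± 0.270 in CCE (n = 4), a log2 difference of 3.14 (adjusted p = 2.64e-06, limma). The log2 difference of Ntrk2 was 2.44 and that of Lingo1 3.57. Ngfrap1, which encodes a p75 interacting protein, was lower (-2.35). Maged1 (-0.17, or 0.07 with median of ratios scaling), another p75 interacting protein, and Sort1 (0.06), the co-receptor for proneurotrophins, were not called.

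For Erbb3 the list of neuregulins and ErbB receptors had 5 tested genes, 2 of them higher and 1 lower. The neuregulin Nrg3 (log2 difference 3.83, adjusted p = 1.29e-06, limma) and the receptor Erbb4 (2.22) were higher in FH. Egfr was lower (-0.69), although in Ribo-Zero libraries it was at 5.85 RPKM in FH and 2.04 in CCE. Erbb2, the signalling partner of ErbB3, was at 24.4 ± 1.72 RPKM in FH (n = 3) and 18.7 ± 5.62 in CCE (n = 4) and was not called, and the ErbB3 ligand Nrg1 differed by 0.42 and was not called either.

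Of 13 tested neural crest factors 8 were higher and 2 lower. Prrx1 (log2 difference 2.87), Ednrb (2.38), Zic1 (2.18), Tfap2b (2.07) and Pax3 (1.81) were higher in FH by limma, with adjusted p of 0.000655 or less, and Msx2 (-2.02) was lower. Twist1, a mesenchymal factor, was at 65.5 ± 16.3 RPKM in FH (n = 3) and 70.9 ± 23.9 in CCE (n = 4) and was not called (-0.08, or 0.15 with median of ratios scaling), nor was Msx1 (-0.45). Of the Schwann cell and glia genes 4 of 8 tested were higher and 2 lower. Cdh19, which marks Schwann cell precursors and was named after its values were seen, had 0.302 RPKM in FH and did not pass the filter. Fabp7 (3.06), Pou3f1 (2.43) and S100b (1.74), which are used in central as well as peripheral glia, were higher, and Pmp22 (-3.04) and Gfra3 (-1.05) were lower. The call of Gfra3 was lost with Nijmegen libraries alone (adjusted p = 0.056, limma) and without FH1h. Cnp (-0.33) and Metrn (-0.22, or 0.01 with median of ratios scaling) were not called.

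Of 12 tested sensory ganglion genes 9 were higher and 2 lower. Neurog2, a proneural factor of ganglia that is also used in the cortex, was at 62.4 ± 17.5 RPKM in FH (n = 3) and 0.178 ± 0.0847 in CCE (n = 4), a log2 difference of 5.72 (adjusted p = 4.61e-07, limma). Neurod1 (2.65), Neurog1 (2.53), Tlx3 (2.25) and Eya2 (1.93) were also higher, and the retinal and sensory relative of Pou4f1, Pou4f2, was higher by 1.82. Prph, an intermediate filament of peripheral neurons that was named after its values were seen, was lower in FH, at 17.9 ± 6.94 RPKM against 53.8 ± 6.49, but in the Ribo-Zero libraries it was at 11.7 RPKM in FH and 13.9 in CCE. Phox2a (-0.50) was not called and Pou4f3, with 2.94 RPKM in FH, was not tested.

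**Figure D5:**
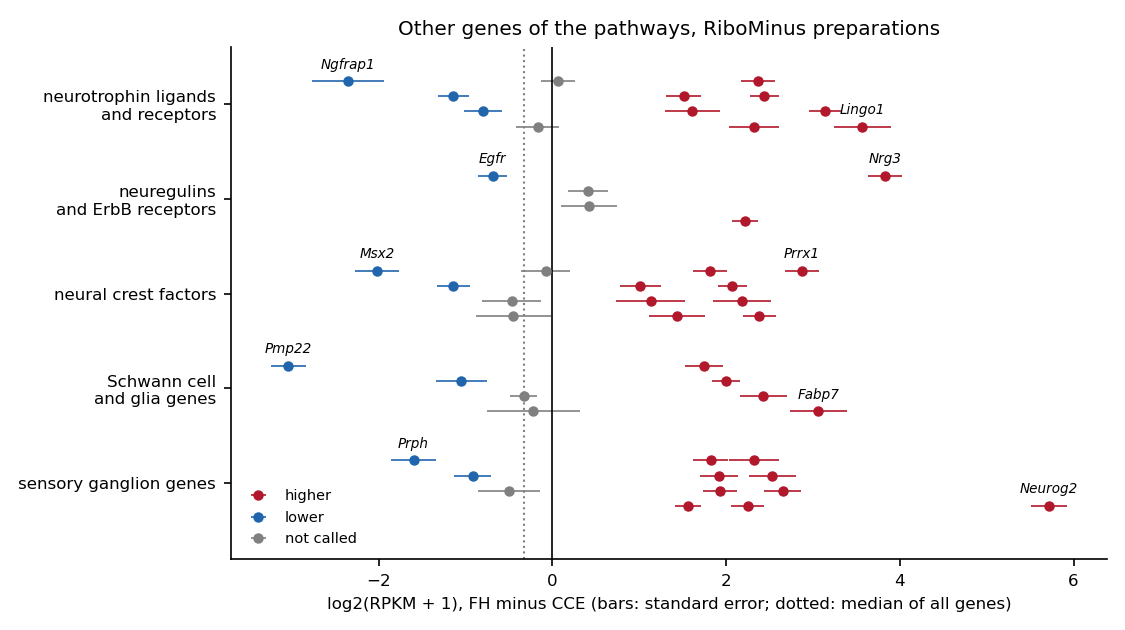
Difference in log2(RPKM + 1), FH minus CCE (x axis), of the 49 tested genes of 5 pathway lists (rows), 1 gene standing in 2 of them, with standard errors, red for higher, blue for lower and grey for not called; the dotted line is the median of all tested genes (-0.33). The extremes run from Pmp22 (-3.04) to Neurog2 (5.72).

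Markers of other cell types that use the same genes were also measured. The 5 oligodendrocyte lineage markers summed to 28 to 60.9 RPKM in FH and 1.73 to 3.15 in CCE RiboMinus libraries, and 4 of 4 tested were higher (Olig1, Olig2, Pdgfra and Cspg4). The list for motor neurons, pituitary and retina summed to 14.1 to 47.6 and 1.29 to 3.92, and 4 of 4 tested were higher, among them Atoh7 of retinal progenitors (log2 difference 4.25 by limma) and Pomc of the pituitary (1.44), whose call was lost with Nijmegen libraries alone. The motor neuron markers Mnx1 and Chat were not tested. Mnx1 was higher in CCE, with 1 FH and 7 CCE tags by RiboMinus and 1 FH and 32 CCE tags by Ribo-Zero. Chat had 3 FH tags by RiboMinus and 16 by Ribo-Zero, and 0 CCE tags by either kit. The markers of melanocytes, which are themselves crest derived, summed to 7.82 to 14.3 and 0.617 to 3.74, mostly from Pmel (8.25 RPKM in FH), the 1 gene tested, while in FH RiboMinus libraries Mlana had 0 tags and Dct a mean of 0.207 RPKM. In the FH Ribo-Zero library Pmel had 5.06 RPKM, Dct 2.44 (293 tags) and Mlana 0.133 (4 tags). The part of these cells in the levels of the 6 genes was not tested.

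The profile of the 6 genes was summarised as the mean of their standardised log2(RPKM + 1) over the 16 libraries. Among 13567 genes with a mean over 1 RPKM in FH, the most alike were Matn4 (Pearson r = 0.981), Cspg4 (0.981), Sorcs2 (0.981), Kndc1 (0.980) and Acsbg1 (0.980). The 16 points fall into 2 tissues, and the fit follows the tissue difference first. Cspg4 encodes the NG2 proteoglycan of oligodendrocyte precursors and pericytes, and Sorcs2 a receptor that pairs with p75. Cspg4 ranged from 7.31 to 27.3 RPKM in FH and from 0.342 to 1.17 in CCE RiboMinus libraries, Sorcs2 from 3.48 to 8.89 and from 0.831 to 1.61. Among the 6 genes, Sox10 (r = 0.943) and Ngfr (0.933) were most like the mean of the other 5, and Erbb3 (0.705) least.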

How the data were processed

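Total RNA of FH and CCE was sequenced on 16 libraries. The deposited values are other than counts: each record is the position and strand of 1 tag, which the authors aligned to mm9 with Bowtie and kept where the hit was unique, per the labels. RPKM values were computed here. A tag was counted by its midpoint in the merged exons of GENCODE M1 genes and scaled to RPKM by all unique tags. The 6 genes and all lists were chosen with earlier results of these data known. Each list was named by its called genes, up to 6 by the largest change, and up to 2 others of highest FH level. Some genes that this rule names are not reported here. Tests used limma 3.58.1 (R 4.3.3). The scale was log2(RPKM + 1), which understates changes of low genes, with a minimum mean of 3 RPKM and Benjamini-Hochberg adjusted p under 0.05. Counting used Python 3.11.15, numpy 2.4.6, pandas 2.3.3 and scipy 1.17.1, and plots matplotlib 3.10.9. Tested on simulated data with 200 changed genes, the FH against CCE fit recovered 189 with 14 unchanged genes called among 10038. The hydrolysed against sheared fit recovered 162 with 34 among 9434. In both fits unchanged genes were a larger share of the calls than the threshold of 0.05. The simulated samples were drawn independently and with larger changes than that of Ngfr between fragmentations. The fits were thus not tried on runs that share a preparation or on smaller changes. Intervals are 95% and, like floors of 3 tags, cover counting error only, since tags carry no molecular identifiers. The hydrolysed FH2 preparation had 2 rounds of depletion. The protocol text of the sheared samples describes hydrolysis, and their names were followed. Whether the numbers of hydrolysed preparations match between locations was not settled. Samples of single lanes or combined libraries were not analysed here. Alternatives were other scalings, filters, pseudocounts, locations, exon sets and left-out libraries.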

Additional observations from a re-analysis of the deposited data

Results flagged for a closer look

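In 4 of 12 groups of libraries the highest or lowest value of a gene stood apart from the others by Dixon's criterion, which chance meets in about 1 in 20 groups of independent values. These groups mix sheared and hydrolysed libraries and repeat runs of a preparation, and over all genes tested between tissues 5.25% of FH and 4.66% of CCE groups stood apart in the same way. Sox10 was at 7.38 RPKM in FH library 5, with the nearest FH library at 15.0, a gap of 0.688 of the range. In CCE library 7 Sox10 was at 1.06 RPKM, from 4 tags, with the nearest library at 0.382. FH library 4, the sheared library of Nijmegen, was highest for Foxd3 (8.24 RPKM, the nearest at 3.56) and for Pou4f1 (5.76 RPKM, the nearest at 2.56).

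Tags outside exons stood above the CCE level in the FH Ribo-Zero library, with intervals that did not overlap, in 7 of the 17 regions measured. Such tags were more frequent in FH over the whole genome, with 44.0% of Ribo-Zero tags in exons against 61.8% in CCE and introns higher in FH by the same criterion in 57.3% of 15354 genes. The 6 genes were also chosen for their higher FH level, so nothing particular to them is read from this count. In the 2 kb downstream of Erbb3, where Pa2g4 starts, the level was lower in FH (3.99 against 10.6 RPKM), and in the 2 kb upstream of Pou4f1 both libraries were low (0.0310 and 0.0348). Intron levels were 0.278 RPKM in FH and 0.0338 in CCE for Ngfr, 0.614 and 0.0101 for Sox10, and 0.329 and 0.158 for Erbb3. For Isl1 they were 0.590 and 0.0940, and for Pou4f1 1.96 and 0.295. In the 2 kb downstream, Isl1 had 0.186 RPKM in FH and 0.0174 in CCE, from 18 and 1 tags, and Pou4f1 had 1.01 and 0.0522, from 98 and 3 tags. These are single libraries, so the differences were not tested against replicates.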

How the results depend on the processing

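The median log2 ratio of the 6 genes between FH and CCE was 2.28. It lay between 2.16 and 2.63 under other scalings, exon sets, locations and the other kit, and between 2.00 and 2.50 when each library was left out. The RiboMinus pools hold sheared libraries in unlike parts, and no median was taken within 1 kind of fragmentation. Single genes moved as well. Scaled by tags in exons, the log2 ratio of Erbb3 was 1.37 in place of 1.02 and that of Isl1 1.84 in place of 1.49. The counting intervals of the single ratios do not cover this choice of scale. The 39 pathway calls of 49 tested, beside 5899 over all genes, became 35 of 47 (Nijmegen libraries only, 4187 over all genes) to 52 of 74 (no filter, 7990) under other settings, with 8019 over all genes with fragmentation as a covariate, and 37 to 40 when a preparation was left out. With 1 sample per depleted RNA, chosen after seeing the data, there were 43, with Snai2, Msx1, Cnp, Phox2a and Nrg1 newly called and Pou4f2 under the filter. With the replicate number as a block there were 40. The numbers share no stated source, the correlations of same-numbered libraries ran from -0.596 to 0.488, and 1 of 12 libraries correlated best with its own number.

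Between hydrolysed and sheared FH libraries the 1 call became 0 without the filter, where 610 genes in all were called in place of 1774, and 0 to 2 when each library was left out (0 without FH library 3 or 4, 2 without FH library 2 or 6). Without library 1 or 4 the lone sheared library was assumed to vary like the hydrolysed ones. Between locations it stayed 0 in every alternative run, while the 5 calls over all genes became 63 with the preparation as a term, 0 without the filter and 0 to 67 when each library was left out. The median log2 kit ratio, -1.08, was -1.39 to -0.79 under alternatives chosen after seeing the data.

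Differences near 0 changed sign. Twist1 was 0.03 with fragmentation as a covariate or without FH2h, 0.11 without CCE2s and 0.15 with median of ratios scaling. Metrn was 0.02, 0.12 (without FH1h), 0.15 (without CCE1s) and 0.01, and Maged1 0.07 with that scaling. Leaving out each preparation gave -0.28 (without FH1s) to 0.11 for Twist1, -0.72 to 0.15 for Metrn and -0.04 to 0.19 for Sort1. Sort1 was -0.01 with the covariate or without CCE2s, -0.04 without FH2h and -0.05 with positions counted once. Erbb3 was -0.36 between fragmentations without FH library 1, which is also its value at Nijmegen alone, and 0.79 without library 4. Between locations Erbb3 ran from -0.24 to 0.38 (without FH library 1 or 4), with 0.01 without library 6, Foxd3 from -0.71 to 0.12 (without library 1) and Sox10 from -0.06 (without library 5) to 0.48. Calls of Cnp and Phox2a appeared with fragmentation as a covariate and of Erbb2 and Nrg1 with the block, and those of Gfra3, Sox2, Dab2 and Pomc were lost in 1 or more alternatives. The causes were not tested. Depth limits the genes with few tags, Foxd3 and Pou4f1 with 72 and 58 FH and Sox10 with 8 CCE RiboMinus tags.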
